A study of Homo sapiens and Mus musculus with 24 samples.

Results

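Collagens were followed in mouse cancer-associated fibroblasts, the stromal cells that surround a tumour, isolated from PtenPC-/-; Trp53PC-/- mice. The 44 collagen genes are all the rows of the fibroblast expression table, which holds 39089 gene names, whose symbol is Col, a number, a and a number. Of the 10 libraries used, 2 each came from fibroblasts at day 7 with 1 µM enzalutamide (ENZ), with 5 ng/ml TGF-beta1 (TGF), with both agents (ENZ+TGF), from fibroblasts of ADT mice at day 0 with no treatment (ADT), and from fibroblasts at day 7 with the vehicle DMSO. Enzalutamide is an antagonist of the androgen receptor and TGF-beta1 a growth factor that acts on fibroblasts. The labels give the genotype of the fibroblasts themselves as WT and state 2 biological replicates for each condition, and they do not spell out ADT or PC. The ADT and DMSO groups differ in the mice, the day and the vehicle, whose parts in any difference cannot be told apart.

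Collagens are trimers of alpha chains wound into a triple helix, each chain the product of its own gene. Fibrillar collagens (types I, II, III, V, XI, XXIV and XXVII) assemble into the cross-striated fibrils that give connective tissue its tensile strength, type IV forms the sheet-like network of basement membranes, and the other types decorate fibrils, form beaded filaments or anchoring fibrils, or span the cell membrane. In tumours fibroblasts are the main source of fibrillar collagen, and TGF-beta is the growth factor best known for inducing it.

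Between 17372424 and 21040105 reads stood behind each library. Values are in TPM, a unit of transcript abundance scaled by gene length, so that levels of different genes can be set side by side. A ± gives the SD between both libraries in a group. Differences are log2 changes of TPM + 1, with adjusted p-values below 0.05 in limma counted as called. For genes at a few TPM this scale understates the change. Nothing states that libraries of a group came from separate mice or cultures, so p-values measure the spread between these libraries, which may be technical. The fibroblast markers were detected, with 4366 and 4362 TPM of Vim and 174 and 174 TPM of Pdgfrb in the DMSO libraries, whereas Lum was listed at 1.49 TPM at most in any library. S100a4, another fibroblast marker, was at 169 and 154 TPM with ENZ+TGF and 147 and 168 TPM in ADT, against 2274 and 2243 TPM with DMSO. Markers of other cell types were mostly lower in the ENZ+TGF and ADT libraries, apart from epithelial and fat cell markers. Most were at low to moderate levels, but smooth muscle and pericyte markers, given below, summed to 1116 to 1131 TPM with DMSO. The 7 macrophage and leukocyte markers, with Cd3e at 0 throughout, summed to 5.66 to 7.63 TPM with ENZ+TGF and 8.53 to 10.3 TPM in ADT, against 90.7 to 93.2 TPM with DMSO. Most of the DMSO sum was Lyz2, at 82.0 and 78.3 TPM, against 1.60 and 4.02 TPM with ENZ+TGF and 4.72 and 3.36 TPM in ADT. Cd68 was at 2.395 and 1.88 TPM with ENZ+TGF and 4.12 and 3.41 TPM in ADT, against 5.03 and 6.34 TPM with DMSO. The 4 Schwann cell markers summed to 0.770 to 0.829 TPM with ENZ+TGF and 0.850 to 0.893 TPM in ADT, against 9.84 to 11.1 TPM with DMSO, with Sox10 at 0 in the ENZ+TGF and ADT libraries and at 4.57 and 5.32 TPM with DMSO. The 5 endothelial markers summed to 1.32 to 1.53 TPM with ENZ+TGF and 1.32 to 1.80 TPM in ADT, against 5.66 to 5.89 TPM with DMSO. Epithelial markers, nearly all Krt19, summed to 28.4 to 29.8 TPM with ENZ+TGF and 25.8 to 26.4 TPM in ADT, against 19.97 TPM or less with DMSO. The 3 fat cell markers, nearly all Fabp4, summed to 16.7 to 17.9 TPM with ENZ+TGF and 13.55 to 18.58 TPM in ADT, against 10.49 to 14.41 TPM with DMSO. The part of these cell types in the results was not tested.

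Both of the following features of the libraries bear on the results. The ENZ+TGF libraries were close to the ADT libraries: the chi-square per gene of their reads was 1.82 to 2.57 over the 4 pairs, against 1.40 to 1.67 between libraries of the same group (5 pairs) and 19.3 to 262 between the other groups (36 pairs). Results on ENZ+TGF are therefore results on the libraries labelled ENZ+TGF. The DMSO values of 52 genes came to whole reads only after division by 0.3. Some of those are TGF-beta-responsive genes, such as Smad7, but none of the 36 collagens whose reads could be recovered was among them. Ccn2, a TGF-beta target outside these 52 genes, was at 5910 and 5916 TPM in the TGF libraries and 1374 and 1378 TPM in the ENZ+TGF libraries, against 1196 and 1208 TPM in the DMSO libraries. Of the 5 TGF-beta response genes that could be counted, 4 rose and 1 fell with TGF, and 3 rose and 2 fell with ENZ+TGF, where 53.6% and 74.2% of all genes were called. Among them, Tgfbi was at 57.6 and 52.8 TPM with ENZ+TGF, against 23.4 and 23.3 TPM with TGF. Bhlhe40 was also higher with ENZ+TGF, at 229 and 222 TPM, against 153 and 154 TPM with TGF. Acta2 and Tagln, like Ccn2, were lower with ENZ+TGF than with TGF.

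Fibrillar collagens made up most of the collagen transcripts in every group, and the sum of basement membrane collagens was 3.24-fold lower with ENZ+TGF than with DMSO. Summed over the 44 genes, collagens reached 13544 ± 174 TPM with ENZ, 16313 ± 169 with TGF, 16831 ± 102 with ENZ+TGF and 17204 ± 196 in ADT, against 15463 ± 152 TPM with DMSO (SD, n = 2 each). The sum was thus lowest with ENZ and highest in ADT, and the libraries of the 4 groups did not overlap those of DMSO. Fibrillar collagens summed to 10223 ± 133, 12854 ± 139.8, 14947 ± 103 and 15337 ± 137 TPM with ENZ, TGF, ENZ+TGF and ADT, against 11887 ± 99.7 TPM with DMSO. Basement membrane collagens summed to 2354 ± 34.0, 2248 ± 18.5, 744 ± 10.1 and 746 ± 26.7 TPM in the same order, against 2406 ± 40.2 TPM with DMSO. Their share of collagen TPM was 4.42% with ENZ+TGF and 4.33% in ADT, against 15.6% with DMSO, while fibrillar collagens held 88.8% and 89.2%, against 76.9%. The remaining collagens took between 6.51% and 7.57% in all 5 groups. These sums have no test. In RNA from bulk cells, fewer cells of a type and less RNA per cell cannot be told apart.

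**Figure D1:**
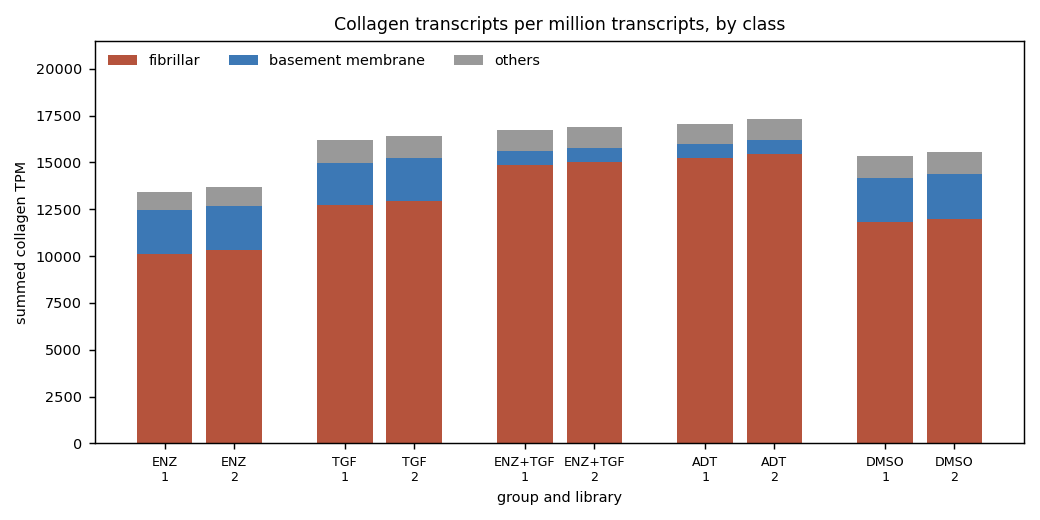
Summed TPM of collagen genes (vertical axis) in each of the 10 libraries, stacked by class (fibrillar at the bottom, basement membrane in the middle, others on top). Basement membrane collagens summed to 744 TPM with ENZ+TGF and 746 TPM in ADT on average, against 2406 TPM with DMSO.

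Of the 44 collagens, 28 reached 1 TPM in at least 2 libraries and were tested: 10 of 11 fibrillar, 4 of 6 basement membrane and 14 of 27 other collagens. With ENZ, 19 of the 28 were called against DMSO, 4 higher and 15 lower, where 25.0% of all tested genes were called, 9.83% higher and 15.2% lower. The median log2 change of the 28 was -0.22, against -0.01 over all genes. Only Col5a3 among them passed a change of 2-fold, which 1.65% of all genes did. With TGF, 22 were called against DMSO, 11 in each direction, beside 53.6% of all genes (19.0% higher and 34.6% lower). A change of 2-fold was passed by 6 of them, beside 8.16% of all genes. The medians were -0.03 for collagens and -0.10 for all genes. In the ENZ+TGF libraries 25 collagens were called against DMSO, 10 higher and 15 lower, beside 74.2% of all genes (31.5% higher and 42.7% lower), with medians of -0.39 and -0.13. Here 12 collagens passed 2-fold, beside 22.7% of all genes. In ADT the count was 26 against DMSO, 10 higher and 16 lower, beside 74.8% of all genes (31.5% higher and 43.3% lower), with medians of -0.47 and -0.13, and 11 passed 2-fold, beside 23.1%. These 4 comparisons share the DMSO libraries. Scaling the libraries by the median of gene ratios moved the median of all genes by 0.13 (ENZ+TGF) and 0.14 (ADT) on the log2 scale. Under it the collagens called against DMSO numbered 12 higher and 14 lower for ENZ+TGF, and likewise for ADT, and for TGF they numbered 13 higher and 10 lower. Over all genes the calls with that scaling came to 3944 higher and 3828 lower with TGF, 5612 and 5313 with ENZ+TGF, and 5693 and 5322 in ADT.

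**Figure D2:**
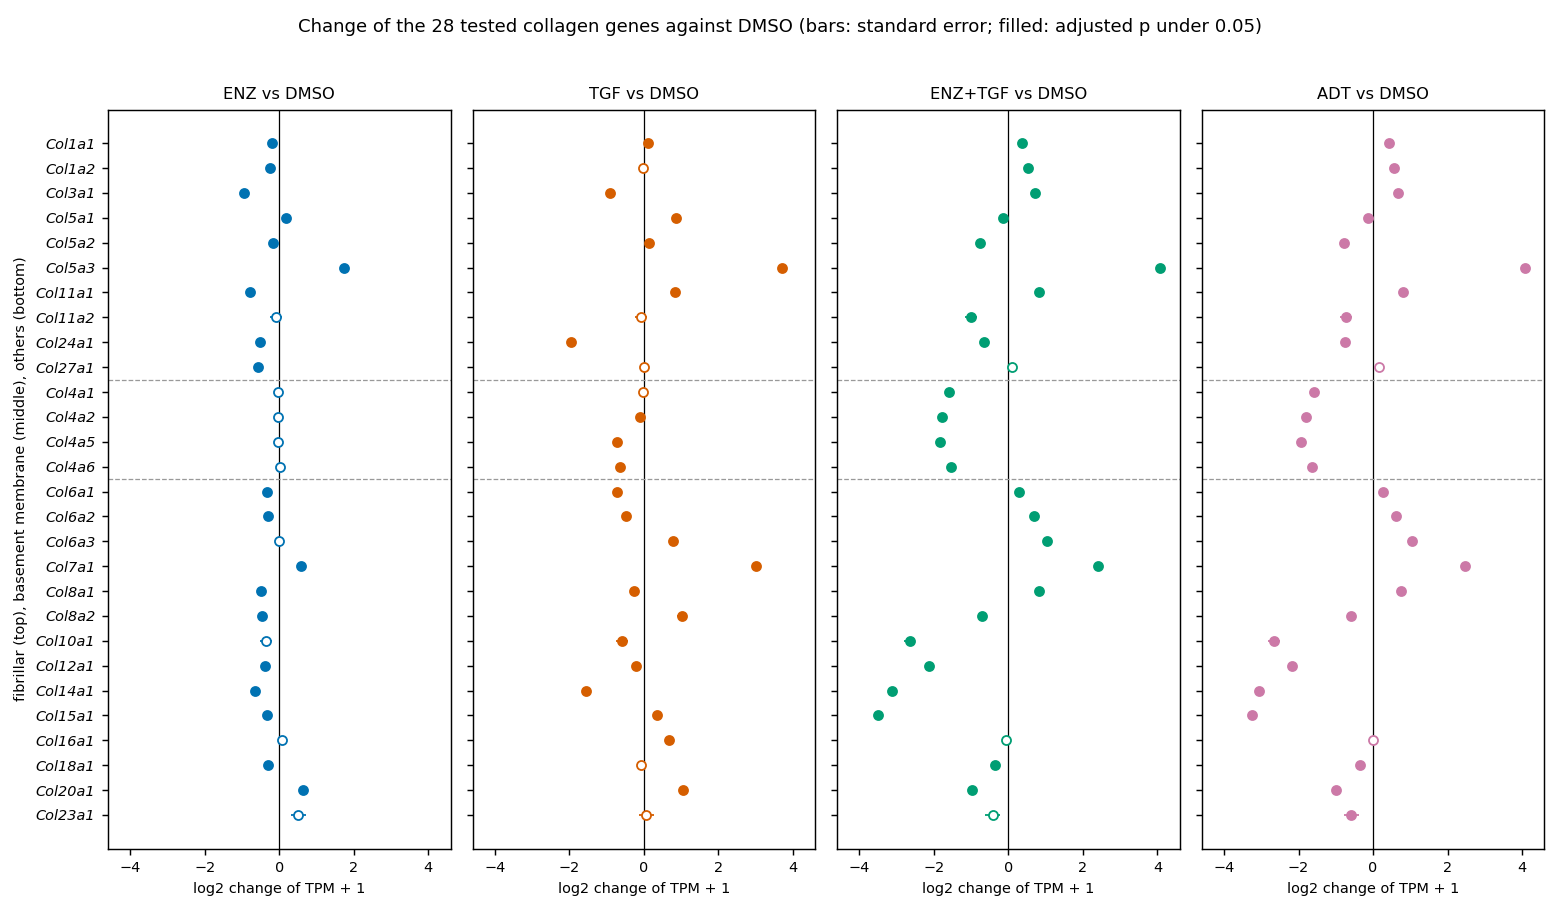
Log2 change of TPM + 1 against DMSO (horizontal axis, bars SE) of the 28 tested collagens in the ENZ, TGF, ENZ+TGF and ADT libraries, with filled circles for adjusted p under 0.05. All 4 basement membrane genes lay below 0 in the ENZ+TGF and ADT panels, and Col5a3 had the highest value in each panel. Col5a1 in those 2 panels, called at -0.14 and -0.13, turned to the other side of 0 with median-of-ratios scaling.

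Type I collagen, the main component of fibrils, changed by no more than 1.48-fold against DMSO in any group. Col1a1, its alpha-1 chain, was the most abundant collagen in all 5 groups, at 4314 and 4427 TPM in the ENZ libraries, 5361 and 5464 TPM in the TGF libraries, 6443 and 6456 TPM in the ENZ+TGF libraries and 6728 and 6689 TPM in the ADT libraries, against 4971 and 5018 TPM in the DMSO libraries. Every DMSO library thus lay above both ENZ libraries and below all others. The log2 changes were -0.19 (SE 0.015) with ENZ, 0.12 (SE 0.015) with TGF, 0.37 (SE 0.015) with ENZ+TGF and 0.43 (SE 0.015) in ADT, all called, with adjusted p in limma between 4.1e-08 and 2.7e-04. The alpha-2 chain, Col1a2, was at 2976 and 3006 TPM in the ENZ libraries, 3469 and 3517 TPM in the TGF libraries, 5049 and 5112 TPM in the ENZ+TGF libraries and 5185 and 5317 TPM in the ADT libraries, against 3517 and 3562 TPM in the DMSO libraries. It fell with ENZ (-0.24, SE 0.015) and rose with ENZ+TGF (0.52, SE 0.015) and in ADT (0.57, SE 0.015). With TGF its log2 change was -0.02 (SE 0.015), 95% interval -0.05 to 0.02, not called (adjusted p = 0.33 in limma), and with median-of-ratios scaling it turned to 0.09, called higher.

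Col3a1, the type III chain that forms fibrils together with type I in extensible tissues, moved one way with each agent alone and the other way in the ENZ+TGF libraries. It had 425 and 436 TPM in the ENZ libraries, 442 and 441 TPM in the TGF libraries, 1328 and 1370 TPM in the ENZ+TGF libraries and 1297 and 1333 TPM in the ADT libraries, against 831 and 824 TPM in the DMSO libraries. The ENZ and TGF libraries lay at about the same level, and those of ENZ+TGF and ADT were the highest, with no overlap with DMSO. In limma its log2 change was -0.94 (SE 0.022, adjusted p = 5.6e-08) with ENZ, -0.90 (SE 0.022, adjusted p = 2.2e-08) with TGF, 0.70 (SE 0.022, adjusted p = 2.2e-08) with ENZ+TGF and 0.67 (SE 0.022, adjusted p = 3.0e-08) in ADT. It ranked 3 among collagens by TPM in the ENZ+TGF and ADT groups, against 6 in the DMSO group.

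Type V collagen, which sits inside type I fibrils and limits their diameter, had its 3 chains changed in different directions. Col5a3 had the largest log2 rise of the 28 tested collagens against DMSO in all 4 comparisons. Its levels were 58.6 and 61.0 TPM in the ENZ libraries, 236 and 240.5 TPM in the TGF libraries, 304 and 312 TPM in the ENZ+TGF libraries and 305 and 311 TPM in the ADT libraries, against 17.0 and 17.6 TPM in the DMSO libraries. DMSO was the lowest group, ENZ came next, and ENZ+TGF and ADT were highest. The mean was 3.45-fold higher with ENZ, 13.7-fold higher with TGF, 17.8-fold higher with ENZ+TGF and 17.8-fold higher in ADT than with DMSO (limma adjusted p = 2.0e-08, 6.8e-11, 2.4e-11 and 2.4e-11 in this order).

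The common type V chains Col5a1 and Col5a2 rose with TGF, by less than Col5a3, and were below DMSO in the ENZ+TGF and ADT libraries, Col5a1 only without median-of-ratios scaling. Col5a1 was at 771 and 793 TPM in the ENZ libraries, 1246 and 1259 TPM in the TGF libraries, 625 and 631 TPM in the ENZ+TGF libraries and 628 and 639.7 TPM in the ADT libraries, against 682 and 708 TPM in the DMSO libraries. TGF stood out as the highest group, with a log2 change of 0.85 (SE 0.023, adjusted p = 3.6e-08) in limma, and ENZ was higher than DMSO by 0.17 (SE 0.023). The ENZ+TGF and ADT libraries lay just below DMSO, called at -0.14 (SE 0.023) and -0.13 (SE 0.023), close to the median of all genes, and median-of-ratios scaling turned both to 0.01 and 0.03, not called. Col5a2 had 1543 and 1555 TPM in the ENZ libraries, 1897 and 1923 TPM in the TGF libraries, 1019 and 1031 TPM in the ENZ+TGF libraries and 997 and 1036 TPM in the ADT libraries, against 1732 and 1763 TPM in the DMSO libraries. It fell by 0.77 (SE 0.02) with ENZ+TGF and by 0.78 (SE 0.02) in ADT on the log2 scale, fell by 0.17 (SE 0.02) with ENZ, and rose by 0.13 (SE 0.02) with TGF.

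Among the minor fibrillar collagens, Col11a1, a type XI chain that nucleates fibrils in cartilage, had 33.0 and 29.3 TPM in the ENZ libraries, 96.8 and 101 TPM in the TGF libraries, 97.0 and 97.5 TPM in the ENZ+TGF libraries and 92.1 and 98.3 TPM in the ADT libraries, against 54.9 and 54.0 TPM in the DMSO libraries. ENZ libraries were the lowest and those of TGF, ENZ+TGF and ADT lay together between 92.1 and 100.7 TPM. Its log2 change was -0.79 (SE 0.057, adjusted p = 3.8e-05) with ENZ, 0.85 (SE 0.057, adjusted p = 6.2e-06) with TGF, 0.83 (SE 0.057, adjusted p = 2.7e-06) with ENZ+TGF and 0.79 (SE 0.057, adjusted p = 3.4e-06) in ADT, by limma. Col24a1, a minor fibrillar chain known from developing bone, had 3.20 and 3.11 TPM in the ENZ libraries, 0.469 and 0.607 TPM in the TGF libraries, 2.92 and 2.60 TPM in the ENZ+TGF libraries and 2.46 and 2.58 TPM in the ADT libraries, against 5.15 and 4.78 TPM in the DMSO libraries, so that TGF alone was by far the lowest group, 9.23-fold below DMSO (log2 -1.96, SE 0.10, adjusted p = 1.6e-06 in limma). With ENZ it was called at -0.52 (SE 0.10), a call lost without DMSO library 1, where the value was -0.48. Col27a1, a fibrillar chain of cartilage, had 3.12 and 3.18 TPM with ENZ, against 4.79 and 5.62 TPM with DMSO, and fell by 0.58 (SE 0.085) on the log2 scale. Its level was 5.11 TPM or more in each library of the other groups. Col11a2, the other type XI chain, had 1.31 and 1.58 TPM in the ENZ libraries, 1.19 and 1.81 TPM in the TGF libraries, 0.32 and 0.28 TPM in the ENZ+TGF libraries and 0.501 and 0.66 TPM in the ADT libraries, against 1.63 and 1.60 TPM in the DMSO libraries. It was called lower with ENZ+TGF (-1.01, SE 0.16) and in ADT (-0.73, SE 0.16), on the TPM + 1 scale that understates changes at such levels. Col2a1, the main collagen of cartilage, never exceeded 0.720 TPM.

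Basement membrane collagens changed little with ENZ and were lower in the ENZ+TGF and ADT libraries, all 4 tested genes by over 2-fold. Col4a1 and Col4a2 encode the chains of the common type IV trimer and lie head to head in the genome on a shared promoter. Col4a1 had 1160 and 1186 TPM in the ENZ libraries, 1170 and 1189 TPM in the TGF libraries, 396 and 403 TPM in the ENZ+TGF libraries and 394 and 415 TPM in the ADT libraries, against 1197 and 1217 TPM in the DMSO libraries. Col4a2 had 1005 and 1028 TPM in the ENZ libraries, 966 and 971 TPM in the TGF libraries, 296 and 301 TPM in the ENZ+TGF libraries and 290.1 and 306 TPM in the ADT libraries, against 1015 and 1050 TPM in the DMSO libraries. For both genes the ENZ+TGF and ADT libraries formed a low pair of groups far from the other 3.

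Against DMSO, the mean of Col4a1 was 3.02-fold lower with ENZ+TGF (log2 -1.59, SE 0.026, adjusted p = 7.1e-10) and 2.98-fold lower in ADT, and that of Col4a2 was 3.46-fold lower (log2 -1.79, SE 0.028, adjusted p = 6.5e-10) and 3.46-fold lower, by limma. With ENZ neither was called, at -0.04 (SE 0.026) and -0.02 (SE 0.028), with 95% intervals of -0.10 to 0.02 and -0.09 to 0.04. With TGF, Col4a1 was not called (-0.03, SE 0.026) and Col4a2 was called at -0.09 (SE 0.028). That call was lost without TGF library 1 (-0.09), TGF library 2 (-0.10) or DMSO library 2 (-0.07), as it was when all genes above 0 were tested. Median-of-ratios scaling turned Col4a1 to 0.07, called higher, and Col4a2 to 0.02, not called.

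Col4a5 and Col4a6, which form another type IV trimer, known from smooth muscle and some epithelial basement membranes, also share a promoter region. Col4a5 had 155 and 155 TPM in the ENZ libraries, 93.8 and 96.4 TPM in the TGF libraries, 41.9 and 44.7 TPM in the ENZ+TGF libraries and 40.0 and 41.2 TPM in the ADT libraries, against 157 and 159 TPM in the DMSO libraries. Here TGF alone lay between DMSO and the low pair of groups. Its log2 change was -0.73 (SE 0.036, adjusted p = 1.1e-06) with TGF, -1.84 (SE 0.036, adjusted p = 1.8e-09) with ENZ+TGF and -1.93 (SE 0.036, adjusted p = 1.4e-09) in ADT, and -0.02 (SE 0.036) with ENZ, not called, by limma. Col4a6, named after its values were seen to complete the class, was lower but ordered alike, at 8.32 and 8.63 TPM in the ENZ libraries, 5.02 and 5.07 TPM in the TGF libraries, 2.19 and 2.23 TPM in the ENZ+TGF libraries and 1.92 and 2.14 TPM in the ADT libraries, against 8.50 and 8.28 TPM in the DMSO libraries. Col4a3 and Col4a4, the chains of the glomerular basement membrane, were at 0.252 TPM or less in all 10 libraries. By class, 0 of the 4 tested type IV genes were called with ENZ (0 at an unadjusted p under 0.05 too, limma), where 25.0% of all genes were called. With TGF 3 were lower, 1 of them Col4a2 with its unstable call, and 4 of 4 were lower with ENZ+TGF and in ADT. Of all genes, 34.6% were lower with TGF, 42.7% with ENZ+TGF and 43.3% in ADT. The type IV medians were -1.69 with ENZ+TGF and -1.71 in ADT, beside -0.13 and -0.13 over all genes. Most smooth muscle and pericyte markers moved alongside: their 6 genes, led by Cnn1, summed to 449 to 450 TPM with ENZ+TGF and 457 to 462 TPM in ADT, against 1116 to 1131 TPM with DMSO, and Myh11 was at 0.813 and 1.25 TPM with ENZ+TGF, against 60.5 and 56.7 TPM with DMSO. Cspg4, a pericyte marker of this list, went the other way, at 237 and 239 TPM with TGF, 35.8 and 37.5 TPM with ENZ+TGF and 38.5 and 41.2 TPM in ADT, against 18.6 and 19.8 TPM with DMSO. Their part in the result was not tested.

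**Figure D3:**
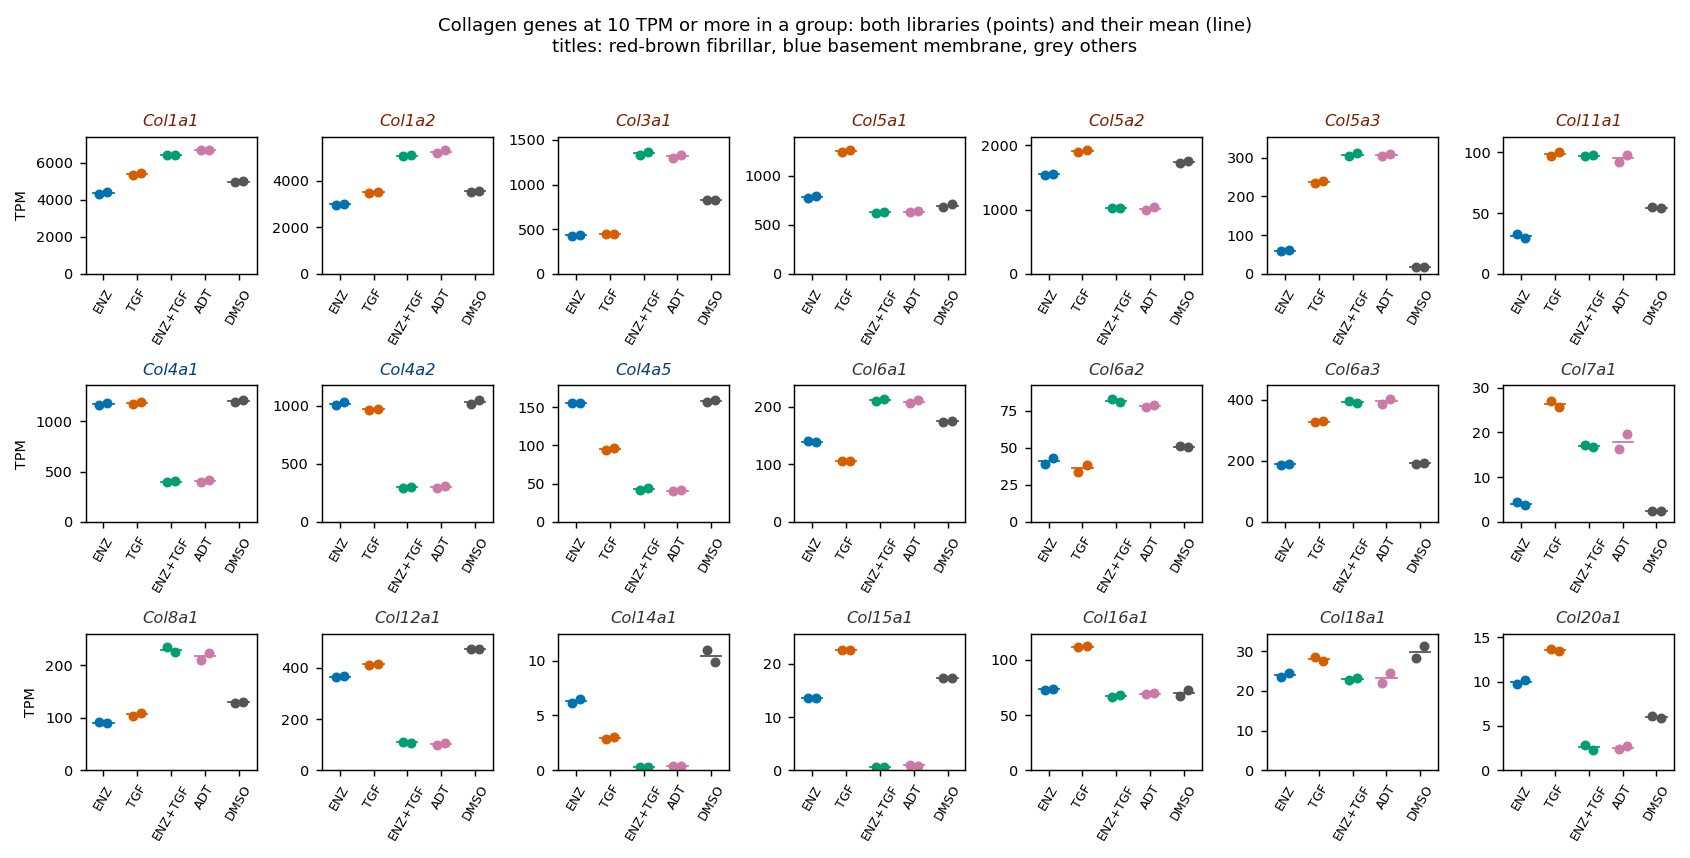
TPM (vertical axes, each from 0) of the 21 collagens that averaged 10 TPM or more in at least 1 group, with a point per library and a line at the mean, for ENZ, TGF, ENZ+TGF, ADT and DMSO. The ENZ+TGF and ADT points lie close together in each panel, low for Col4a1, Col4a2 and Col4a5 and high for Col3a1 and Col5a3.

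Type VI collagen forms beaded filaments between fibres and basement membranes, and its alpha-3 chain Col6a3 parted from the other chains with TGF. Col6a3 had 187 and 192 TPM in the ENZ libraries, 328 and 330.0 TPM in the TGF libraries, 398 and 391 TPM in the ENZ+TGF libraries and 388 and 404 TPM in the ADT libraries, against 189.6 and 194 TPM in the DMSO libraries. Col6a1 had 139.7 and 139 TPM in the ENZ libraries, 106 and 107 TPM in the TGF libraries, 210.5 and 214 TPM in the ENZ+TGF libraries and 206 and 211 TPM in the ADT libraries, against 174 and 175 TPM in the DMSO libraries. With TGF, Col6a3 was thus above DMSO and Col6a1 below it, while both were highest with ENZ+TGF and in ADT. In limma the log2 change of Col6a3 was 0.78 (SE 0.026, adjusted p = 1.2e-07) with TGF and 1.04 (SE 0.026, adjusted p = 6.5e-09) with ENZ+TGF, and that of Col6a1 was -0.71 (SE 0.021, adjusted p = 7.0e-08) with TGF and 0.28 (SE 0.021, adjusted p = 5.6e-06) with ENZ+TGF.

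Col6a2, which pairs with Col6a1 in the trimer, had 39.1 and 43.1 TPM in the ENZ libraries, 33.8 and 38.8 TPM in the TGF libraries, 83.0 and 80.8 TPM in the ENZ+TGF libraries and 77.9 and 78.8 TPM in the ADT libraries, against 51.2 and 50.5 TPM in the DMSO libraries. It fell by 0.48 (SE 0.066) with TGF and rose by 0.68 (SE 0.066) with ENZ+TGF on the log2 scale. In ADT all 3 chains rose, by 0.26 (SE 0.021) for Col6a1, 0.61 (SE 0.066) for Col6a2 and 1.04 (SE 0.026) for Col6a3. With ENZ, Col6a1 fell by 0.32 (SE 0.021), Col6a3 was not called (-0.02, SE 0.026), and Col6a2 was called at -0.30 (SE 0.066). The Col6a2 call was lost without ENZ library 1 (-0.23), DMSO library 1 (-0.29) or DMSO library 2 (-0.31).

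Col7a1, whose product forms the anchoring fibrils that tie epithelial basement membranes to the stroma, rose in all 4 comparisons with DMSO. It had 4.41 and 3.71 TPM in the ENZ libraries, 27.0 and 25.6 TPM in the TGF libraries, 17.1 and 16.8 TPM in the ENZ+TGF libraries and 16.2 and 19.5 TPM in the ADT libraries, against 2.37 and 2.42 TPM in the DMSO libraries. The TGF libraries were highest and the DMSO libraries lowest, and no library of another group overlapped DMSO. The mean was 1.70-fold higher with ENZ, 11.0-fold higher with TGF, 7.10-fold higher with ENZ+TGF and 7.47-fold higher in ADT than with DMSO, with log2 changes of 0.57 (SE 0.10, adjusted p = 0.0039), 3.01 (SE 0.10, adjusted p = 1.1e-07), 2.41 (SE 0.10, adjusted p = 1.1e-07) and 2.47 (SE 0.10, adjusted p = 9.3e-08) by limma.

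The short-chain collagens of type VIII, found in vessel walls and the cornea, had chains that moved apart in every group but ENZ. Col8a1 was at 91.1 and 90.4 TPM in the ENZ libraries, 103 and 109 TPM in the TGF libraries, 234 and 225 TPM in the ENZ+TGF libraries and 210.5 and 223 TPM in the ADT libraries, against 128 and 130.4 TPM in the DMSO libraries, and Col8a2, its partner chain, was at 2.24 and 2.11 TPM in the ENZ libraries, 7.53 and 8.19 TPM in the TGF libraries, 1.82 and 1.54 TPM in the ENZ+TGF libraries and 2.11 and 1.71 TPM in the ADT libraries, against 3.51 and 3.27 TPM in the DMSO libraries. With TGF, Col8a1 fell by 0.28 (SE 0.038) and Col8a2 rose by 1.01 (SE 0.11), whereas Col8a1 was highest with ENZ+TGF (0.82, SE 0.038) and in ADT (0.74, SE 0.038). With ENZ, Col8a1 was called at -0.50 (SE 0.038), and Col8a2 also lay below DMSO, at -0.47. The log2 change of Col8a2 was -0.72 with ENZ+TGF and -0.60 in ADT. Col10a1, the collagen of hypertrophic cartilage, was close to undetected in the ENZ+TGF and ADT libraries: 0 and 0.0468 TPM with ENZ+TGF and 0.0469 and 0 TPM in ADT, against 5.09 and 5.82 TPM with DMSO. Those values stand for 1 read in the ENZ+TGF libraries and 1 read in the ADT libraries, against 210 reads in the DMSO libraries. At equal depth this is a 223-fold lower level with ENZ+TGF (95% counting interval 39.6 to 8850, counting error only) and a 212-fold lower level in ADT (37.7 to 8420). With ENZ it was at 4.62 and 3.48 TPM and with TGF at 3.75 and 2.88 TPM.

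Among the FACIT collagens, which bind the surface of fibrils, Col12a1 and Col14a1 had some of the deepest falls against DMSO in the ENZ+TGF and ADT libraries. Col12a1, the most abundant of them, had 364 and 368 TPM in the ENZ libraries, 412 and 416 TPM in the TGF libraries, 109.8 and 107 TPM in the ENZ+TGF libraries and 100.2 and 107 TPM in the ADT libraries, against 475 and 476 TPM in the DMSO libraries, and the ENZ+TGF and ADT libraries were far below the rest. Its mean was 4.38-fold lower with ENZ+TGF (log2 -2.12, SE 0.03, adjusted p = 3.7e-10) and 4.59-fold lower in ADT than with DMSO by limma, with smaller falls of 0.38 (SE 0.03) with ENZ and 0.20 (SE 0.03) with TGF, log2. Col14a1, a relative that also coats fibrils, had 6.12 and 6.50 TPM in the ENZ libraries, 2.80 and 3.03 TPM in the TGF libraries, 0.31 and 0.329 TPM in the ENZ+TGF libraries and 0.412 and 0.339 TPM in the ADT libraries, against 11.0 and 9.88 TPM in the DMSO libraries, so that all groups lay below DMSO. Its mean was 32.7-fold lower with ENZ+TGF and 27.8-fold lower in ADT (log2 -3.12 and -3.06 on TPM + 1, adjusted p = 2.8e-08 and 3.1e-08 by limma), and it was called at -0.65 (SE 0.10) with ENZ and -1.55 (SE 0.10) with TGF.

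Col20a1, a FACIT of low abundance, had 9.73 and 10.2 TPM in the ENZ libraries, 13.7 and 13.4 TPM in the TGF libraries, 2.84 and 2.33 TPM in the ENZ+TGF libraries and 2.37 and 2.69 TPM in the ADT libraries, against 6.16 and 5.93 TPM in the DMSO libraries. It was above DMSO with each agent alone, by 0.64 (SE 0.091) with ENZ and 1.05 (SE 0.091) with TGF on the log2 scale, and below it with ENZ+TGF (-0.98, SE 0.091) and in ADT, where the mean was 2.39-fold lower, all called. Col16a1, another FACIT, had 73.1 and 73.5 TPM in the ENZ libraries, 111 and 112 TPM in the TGF libraries, 66.4 and 68.1 TPM in the ENZ+TGF libraries and 68.8 and 70.1 TPM in the ADT libraries, against 67.5 and 72.3 TPM in the DMSO libraries. The TGF libraries were far above all others, at a log2 change of 0.67 (SE 0.036, adjusted p = 1.8e-06) in limma. Its values of 0.07 (SE 0.036) with ENZ, -0.05 (SE 0.036) with ENZ+TGF and -0.01 (SE 0.036) in ADT were not called. The ENZ+TGF value was called without DMSO library 1 (-0.10), and median-of-ratios scaling turned it to 0.10 and that of ADT to 0.16, both called higher.

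The multiplexins Col15a1 and Col18a1, proteoglycan collagens of the basement membrane zone, were both called lower with ENZ, with ENZ+TGF and in ADT. Col15a1 fell far more in the ENZ+TGF and ADT libraries, and it alone was called higher with TGF. Col15a1 had 13.6 and 13.6 TPM in the ENZ libraries, 22.7 and 22.5 TPM in the TGF libraries, 0.634 and 0.588 TPM in the ENZ+TGF libraries and 1.05 and 0.817 TPM in the ADT libraries, against 17.4 and 17.4 TPM in the DMSO libraries. The ENZ+TGF and ADT libraries were thus at about 1 TPM or below while TGF alone was highest. The mean was 28.4-fold lower with ENZ+TGF and 18.6-fold lower in ADT than with DMSO, with log2 changes of -3.51 (SE 0.076, adjusted p = 3.2e-09) and -3.25 (SE 0.076, adjusted p = 4.6e-09) by limma, and it rose by 0.36 (SE 0.076) with TGF. With ENZ it was called at -0.34 (SE 0.076), a call lost without ENZ library 1, ENZ library 2, DMSO library 1 or DMSO library 2, at -0.34, -0.34, -0.34 and -0.33, and also with a pseudocount of 0.1 (-0.36). Col18a1, the precursor of endostatin, stayed between 22.1 and 31.4 TPM in all libraries. It was called lower with ENZ (-0.30, SE 0.065), ENZ+TGF (-0.36, SE 0.065) and in ADT (-0.35, SE 0.065) but not with TGF (-0.08, SE 0.065). The ENZ call was lost without ENZ library 1 (-0.27) or DMSO library 2 (-0.23). All 3 calls were lost when the Sox4 columns joined the fit, with the log2 changes as before. Those columns are computed from the ADT columns, so that loss does not show whether the calls are stable.

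Of the transmembrane collagens, Col23a1 was the one tested, and it is named after its values were seen. It had 1.05 and 1.35 TPM in the ENZ libraries, 0.917 and 0.36 TPM in the TGF libraries, 0.151 and 0.146 TPM in the ENZ+TGF libraries and 0.0243 and 0.0235 TPM in the ADT libraries, against 0.456 and 0.627 TPM in the DMSO libraries. It was called lower in ADT than with DMSO (-0.59, SE 0.20), from 1 read in each ADT library, and lower with ENZ+TGF than with ENZ (-0.94, SE 0.20). Its difference in TGF effect with and without enzalutamide was also called, below 0. Only the ENZ libraries reached 1 TPM, so Col23a1 entered the test through the group where it was high. That selection favours a fall against ENZ and a difference below 0, so these calls of Col23a1 carry no weight, though the counts below include them. The other 15 collagens outside the test, beside Col2a1, comprised Col4a3, Col4a4, Col6a4, Col6a5, Col6a6, Col9a1, Col9a2, Col9a3, Col13a1, Col17a1, Col19a1, Col22a1, Col25a1, Col26a1 and Col28a1. They reached 1.28 TPM at most, in 1 library for Col9a3, a cartilage FACIT, and Col9a1 and Col6a6 were at 0 in all 10 libraries.

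Whether TGF-beta1 changed collagens alike with and without enzalutamide was tested as a difference of log2 changes, ENZ+TGF over ENZ minus TGF over DMSO. It was called for 27 of the 28 tested collagens, 10 above 0 and 17 below, where 63.7% of all tested genes were called (30.7% above 0 and 33.1% below). It passed 2-fold for 17 collagens, beside 22.6% of all genes, and the medians were -0.88 for collagens and -0.04 for all genes. By class, 4 of 4 type IV genes were below 0, and the 10 fibrillar genes split into 6 above and 4 below. Col3a1 had a log2 change of 1.65 (SE 0.022) with TGF on top of ENZ, against -0.90 (SE 0.022) with TGF alone, a difference of 2.55 (SE 0.031, adjusted p = 3.7e-10) in limma. For Col15a1 the 2 changes were -3.18 (SE 0.076) and 0.36 (SE 0.076), a limma difference of -3.54 (SE 0.11, adjusted p = 3.8e-08). For Col20a1 they were -1.62 (SE 0.091) and 1.05 (SE 0.091), a limma difference of -2.66 (SE 0.13, adjusted p = 5.4e-07). Col6a1, Col6a2 and Col8a1 also had opposite signs: 0.60 (SE 0.021) against -0.71 (SE 0.021), 0.98 (SE 0.066) against -0.48 (SE 0.066) and 1.33 (SE 0.038) against -0.28 (SE 0.038).

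Col5a3 and Col7a1 rose with TGF in both settings, by less on top of ENZ: 2.35 (SE 0.031) against 3.71 (SE 0.031) for Col5a3, and 1.83 (SE 0.10) against 3.01 (SE 0.10) for Col7a1, with differences of -1.36 (SE 0.044, adjusted p = 5.3e-08) and -1.18 (SE 0.14, adjusted p = 1.2e-04) in limma. Col4a1 fell by 1.55 (SE 0.026) on top of ENZ, with -0.03 (SE 0.026) for TGF alone, not called, and a limma difference of -1.52 (SE 0.036, adjusted p = 1.0e-08). For Col18a1 the changes were -0.06 (SE 0.065) and -0.08 (SE 0.065), neither called, and their difference was 0.03 (SE 0.092), with a 95% interval of -0.19 to 0.24, not called. All these differences rest on the ENZ+TGF libraries, which were close to the ADT libraries.

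**Figure D4:**
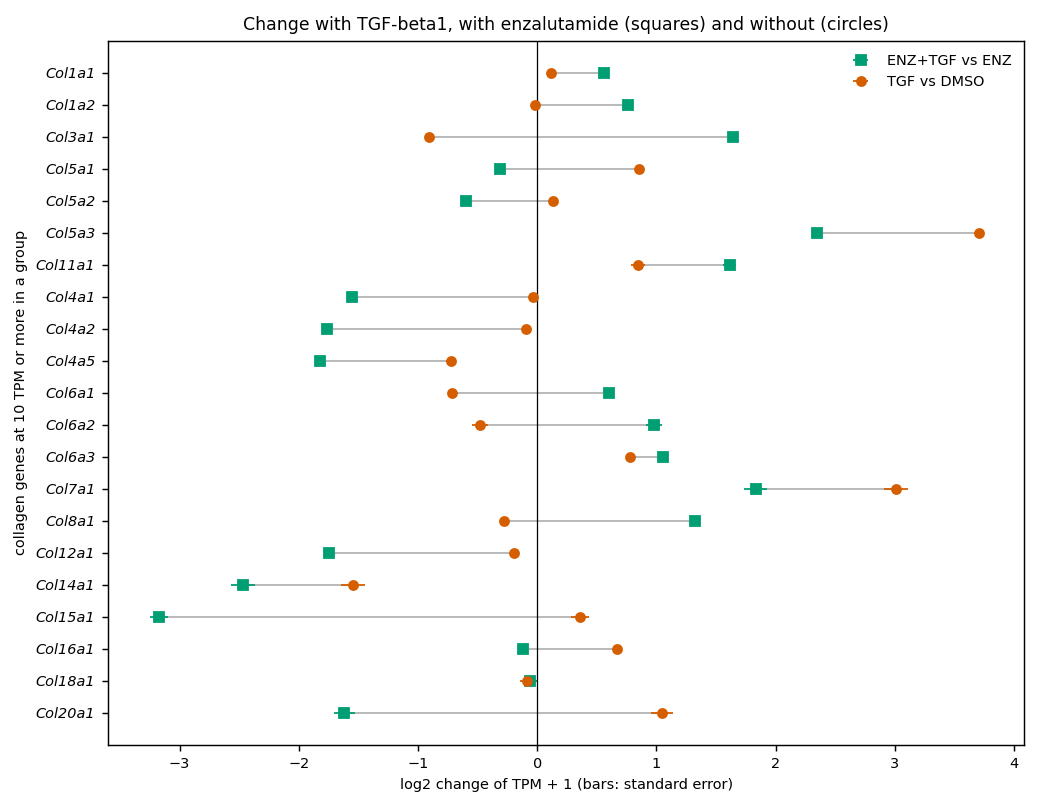
Log2 change of TPM + 1 with TGF-beta1 for the 21 collagens at 10 TPM or more in a group, with enzalutamide (squares, ENZ+TGF over ENZ) and without (circles, TGF over DMSO), bars SE, joined by a grey line. The line is longest for Col15a1 and shortest for Col18a1, and it crosses 0 for Col3a1, where the values were 1.65 and -0.90. The Col1a2, Col4a1 and Col4a2 circles and the Col16a1 and Col18a1 squares lie within 0.13 of 0, and median-of-ratios scaling turned their signs, as it did the Col18a1 circle.

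Set directly against TGF, the ENZ+TGF libraries had 25 of 28 collagens called, 9 higher and 16 lower, beside 71.6% of all genes (33.4% higher and 38.2% lower), with medians of -0.66 for collagens and -0.05 for all genes. A change of 2-fold was passed by 13 collagens, beside 19.7% of all genes. The largest rises were Col3a1 (1.61, SE 0.022), Col24a1 (1.29, SE 0.10), Col6a2 (1.16, SE 0.066), Col8a1 (1.10, SE 0.038) and Col6a1 (0.99, SE 0.021). The deepest falls, leaving aside Col10a1 with its 1 read, were Col15a1 (-3.87, SE 0.076), Col20a1 (-2.02, SE 0.091), Col12a1 (-1.92, SE 0.03) and Col8a2 (-1.73, SE 0.11). Col11a1 was not called (-0.02, SE 0.057), with a sign that turned with median-of-ratios scaling and without TGF library 2. Against ENZ, ENZ+TGF also had 25 called, 11 higher and 14 lower, beside 74.2% of all genes (31.4% higher and 42.8% lower), with medians of -0.20 and -0.12, and 15 passed 2-fold, beside 22.9%. With median-of-ratios scaling the calls over all genes came to 5562 higher and 5325 lower. The largest rises against ENZ were Col5a3 (2.35, SE 0.031), Col7a1 (1.83, SE 0.10), Col3a1 (1.65, SE 0.022), Col11a1 (1.61, SE 0.057) and Col8a1 (1.33, SE 0.038). The deepest falls against ENZ, again leaving aside Col10a1, were Col15a1 (-3.18), Col14a1 (-2.47), Col4a5 (-1.82) and Col4a2 (-1.77). Col16a1 was called at -0.12 (SE 0.036). That call was lost without ENZ library 2 (-0.12) or ENZ+TGF library 1 (-0.10), and it turned to 0.02 with median-of-ratios scaling, as the uncalled Col18a1 turned to 0.08.

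Against ADT, 0 of the 28 collagens were called in the ENZ+TGF libraries by limma, with 4 at an unadjusted p under 0.05, where 0.0135% of all genes (2 genes) were called. The log2 differences ran from -0.28 to 0.17, and their median was 0.0005, beside 0.0036 over all genes. Over the 21 collagens at 10 TPM or more, the lowest 95% interval bound was -0.44 (Col15a1) and the highest was 0.23 (Col20a1). Col15a1 had the largest difference of these 21, at 0.634 and 0.588 TPM with ENZ+TGF, against 1.05 and 0.817 TPM in ADT (-0.26, SE 0.076, adjusted p = 0.46 in limma).

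Because TPM is per length, ratios of chains that share a trimer could be compared, as values with no test. The ratio of Col1a1 to Col1a2 was 1.46 ± 0.016, 1.55 ± 0.0056, 1.27 ± 0.0093 and 1.28 ± 0.028 with ENZ, TGF, ENZ+TGF and in ADT, against 1.41 ± 0.0032 with DMSO. It was lowest in the ENZ+TGF and ADT libraries, where Col1a2 rose more than Col1a1. The ratio of Col4a1 to Col4a2 was 1.15 ± 0.00067, 1.22 ± 0.0097, 1.34 ± 0.0021 and 1.36 ± 0.003 with ENZ, TGF, ENZ+TGF and in ADT, against 1.17 ± 0.014 with DMSO, highest in the groups where both genes were low. Larger shifts were seen for type VI and type V. The ratio of Col6a3 to Col6a1 was 1.36 ± 0.028, 3.10 ± 0.01, 1.86 ± 0.045 and 1.90 ± 0.027 with ENZ, TGF, ENZ+TGF and in ADT, against 1.10 ± 0.013 with DMSO, highest with TGF alone. Col6a2 to Col6a1 was 0.295 ± 0.022, 0.342 ± 0.031, 0.386 ± 0.011 and 0.3755 ± 0.0024 with ENZ, TGF, ENZ+TGF and in ADT, against 0.291 ± 0.0041 with DMSO. It ran from 0.280 to 0.394 over all 10 libraries, and those of ENZ+TGF and ADT lay above DMSO. For Col5a1 to Col5a2 the ratio was 0.505 ± 0.0068, 0.656 ± 0.0012, 0.613 ± 0.00066 and 0.624 ± 0.0089 with ENZ, TGF, ENZ+TGF and in ADT, against 0.398 ± 0.0057 with DMSO. The ratio of Col8a1 to Col8a2 was 41.7 ± 1.5, 13.5 ± 0.27, 138 ± 12 and 115 ± 22 with ENZ, TGF, ENZ+TGF and in ADT, against 38.1 ± 2.4 with DMSO. It rests on Col8a2 at a few TPM. A further pair was chosen after the values were seen: Col5a3 to Col5a2 was 0.0386 ± 0.00088, 0.125 ± 0.00059, 0.301 ± 0.0029 and 0.303 ± 0.0044 with ENZ, TGF, ENZ+TGF and in ADT, against 0.00992 ± 0.00013 with DMSO, and the groups did not overlap except ENZ+TGF with ADT.

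**Figure D5:**
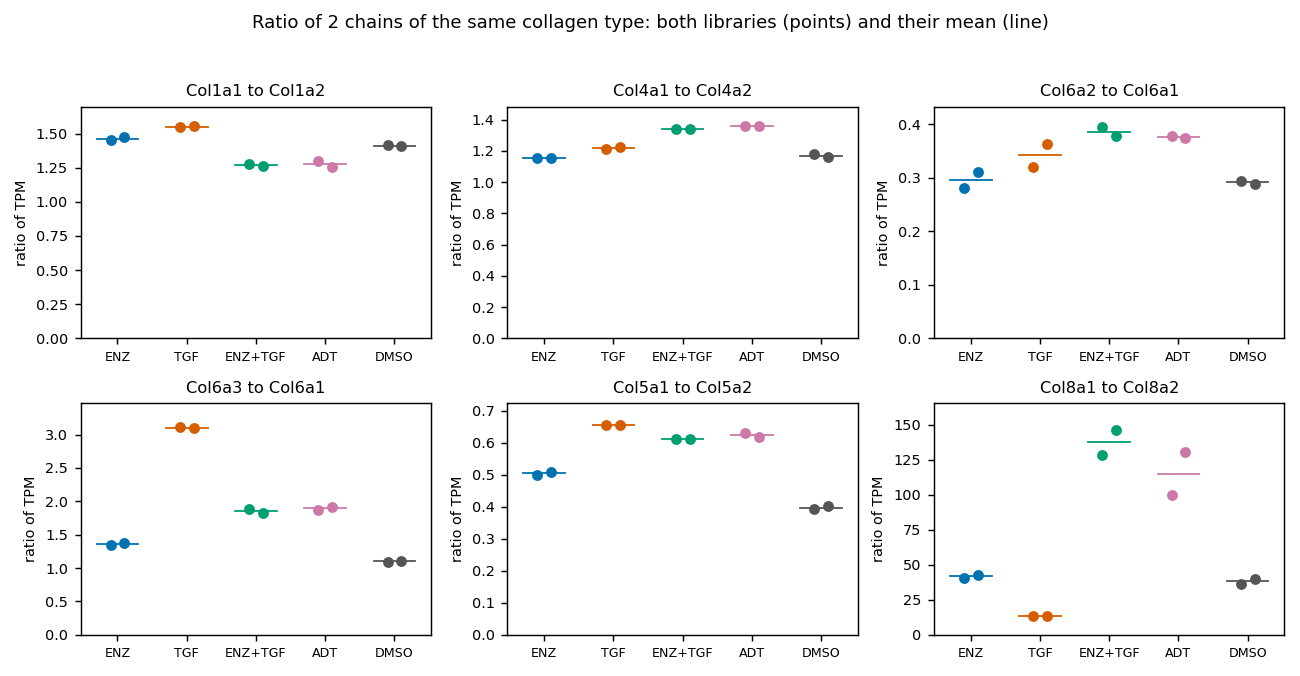
Ratio of TPM of 2 chains of the same collagen type (vertical axes, each from 0) in ENZ, TGF, ENZ+TGF, ADT and DMSO, a point per library and a line at the mean. The ratio of Col6a3 to Col6a1 averaged 3.10 with TGF, against 1.10 with DMSO.

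Procollagen chains are hydroxylated, folded and glycosylated in the endoplasmic reticulum before secretion. Of 20 tested genes of modification and folding, 0 rose and 9 fell with ENZ, 13 rose and 6 fell with TGF, 10 rose and 8 fell with ENZ+TGF, and 10 rose and 9 fell in ADT, all against DMSO. Beside these counts stand 25.0%, 53.6%, 74.2% and 74.8% of all genes called in these comparisons. The medians were -0.10, 0.23, 0.15 and 0.01 on the log2 scale, beside -0.01, -0.10, -0.13 and -0.13 over all genes. Serpinh1, the collagen-specific chaperone HSP47, was at 3241 and 3276 TPM with ENZ+TGF, against 2060 and 2066 TPM with DMSO (log2 0.66, SE 0.011, adjusted p = 9.1e-10 by limma). The prolyl 4-hydroxylase subunits parted. P4ha2 rose by 1.55 (SE 0.038) with ENZ+TGF while P4ha3 fell by 2.07 (SE 0.036), and P4ha1 had log2 changes of -0.68 (SE 0.024) with ENZ, -0.34 (SE 0.024) with TGF, 0.56 (SE 0.024) with ENZ+TGF and 0.53 (SE 0.024) in ADT. Plod2, the lysyl hydroxylase of collagen telopeptides, fell by 0.55 (SE 0.026) with ENZ and rose by 0.61 (SE 0.026) with TGF. Fkbp14, a prolyl isomerase of the reticulum, fell by 1.53 (SE 0.035) with ENZ+TGF.

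Outside the cell, propeptides are removed and chains are cross-linked. Of 13 tested genes of these steps, 2 rose and 6 fell with ENZ, 8 rose and 5 fell with TGF, 3 rose and 9 fell with ENZ+TGF, and 4 rose and 9 fell in ADT, with medians of -0.10, 0.37, -0.39 and -0.42, beside -0.01, -0.10, -0.13 and -0.13 over all genes. Again 25.0%, 53.6%, 74.2% and 74.8% of all genes were called. Lox, the lysyl oxidase that starts cross-links, had 4013 and 3992 TPM with ENZ, 5855 and 5813 TPM with TGF, 1721 and 1714 TPM with ENZ+TGF and 1578 and 1629 TPM in ADT, against 3540 and 3520 TPM with DMSO. It was thus highest with TGF and lowest in the ENZ+TGF and ADT libraries, with log2 changes in limma of 0.72 (SE 0.015, adjusted p = 1.2e-08) with TGF and -1.04 (SE 0.015, adjusted p = 4.4e-10) with ENZ+TGF. Loxl2, a lysyl oxidase that acts on type IV collagen, rose by 0.85 (SE 0.017) with TGF and 0.97 (SE 0.017) with ENZ+TGF. Adamts14, an N-proteinase of procollagen, rose by 1.80 (SE 0.048) with ENZ+TGF, and Tgm2, a transglutaminase, fell by 1.53 (SE 0.044).

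Of 12 counted fibril-associated proteoglycans and binders, 0 rose and 7 fell with ENZ, 2 rose and 8 fell with TGF, and 1 rose and 9 fell with ENZ+TGF, and likewise in ADT, with medians of -0.32, -0.64, -0.84 and -0.76. The medians over all genes were -0.01, -0.10, -0.13 and -0.13. The share of all genes called in either direction was 25.0% with ENZ, 53.6% with TGF, 74.2% with ENZ+TGF and 74.8% in ADT, the last 2 near the share of this list. By direction, 31.5% of all genes were higher and 42.7% lower with ENZ+TGF, and 31.5% and 43.3% in ADT. Thbs1 was left out, because its DMSO values were off whole reads. Prelp, a small leucine-rich proteoglycan of the basement membrane zone, was at 0.126 and 0.142 TPM with ENZ+TGF and 31.4 and 34.7 TPM with TGF, against 71.0 and 69.5 TPM with DMSO. Ogn, a proteoglycan that binds fibrils, fell by 1.33 (SE 0.05) with ENZ and by 2.19 (SE 0.05) with TGF. Of 9 tested collagen receptors, 2 rose and 3 fell with ENZ, 3 rose and 4 fell with TGF, and 1 rose and 8 fell with ENZ+TGF, and likewise in ADT, with medians of 0.03, -0.09, -0.68 and -0.59. Of all genes, 9.83% were higher and 15.2% lower with ENZ, 19.0% and 34.6% with TGF, 31.5% and 42.7% with ENZ+TGF, and 31.5% and 43.3% in ADT. Itga11, the integrin chain that binds fibrillar collagen on fibroblasts, was at 3.05 and 1.96 TPM with ENZ+TGF, against 46.1 and 45.7 TPM with DMSO (log2 -3.76, SE 0.13, adjusted p = 3.8e-08 by limma), and the collagen-activated kinase Ddr2 fell by 1.54 (SE 0.024). Of 6 tested collagen-degrading proteases, 2 rose and 2 fell with ENZ, and 4 rose and 2 fell in each other group against DMSO, with medians of -0.11, 0.31, 0.52 and 0.50, and the all-gene shares higher and lower are those just given. Mmp9, a gelatinase that also cleaves type IV collagen, was at 38.3 and 37.5 TPM with TGF, 374.0 and 373.8 TPM with ENZ+TGF and 408.5 and 410.2 TPM in ADT, against 1.85 and 1.53 TPM with DMSO. Macrophage and leukocyte markers were lower in the ENZ+TGF and ADT libraries, and their part in these counts was not tested.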

How the data were processed

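RNA was extracted with Trizol, made into libraries with a NEBNext Ultra RNA kit and sequenced on a HiSeq, per the labels' protocols. The authors deposited TPM per gene in 1 fibroblast table, with a column per library; per the submitters' processing notes, HISAT2, HTSeq, DESeq2 and the builds mm10 and hg19 were used, in roles that are not given. No source used here says whether strand was used, so reads of overlapping or antisense genes cannot be told apart. Of 12 columns, 10 were used. The 2 Sox4 columns were left out of the comparisons because their values are computed from the ADT columns, and a table of 12 LNCaP libraries was not used here.

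Where at least 6 libraries were above 0, the TPM worth of 1 read was solved for each gene (steps within 0.02, reads whole within 0.05), which recovered reads for 17519 of 39089 genes, over 99.8% of TPM. The DMSO columns summed to 986375 and 986203 TPM, and division of 52 genes by 0.3 gave 999988 and 999987. Differences were fitted with limma 3.58.1 (R 4.3.3, with a mean-variance trend) on log2(TPM + 1) over 10 libraries in 5 groups (5 residual degrees of freedom), for 14828 genes at 1 TPM or more in at least 2 libraries. Two-sided p-values were adjusted over all tested genes of a comparison by the Benjamini-Hochberg method and called under 0.05. The pseudocount understates changes of low genes. The fit was tested on simulated data, in which few genes were changed and genes of few reads were left out. That setting differs from these data, so the simulation does not show how the fit behaves here. Summaries used Python 3.11.15 with numpy 2.4.6, pandas 2.3.3 and scipy 1.17.1. The interval of the Col10a1 ratio is an exact one for counts and covers counting error only.

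Named collagens averaged 10 TPM or more in a group, or were among the 5 largest called rises or falls of a comparison at 1 TPM or more with libraries apart. Of each related list, some but not all of the 4 genes with the smallest p in a comparison were named, plus Lox, Serpinh1, P4ha1 and Plod2. Col4a6, Col11a2, Col23a1, Vim, Pdgfrb, S100a4 and others named outside this rule were chosen after their values were seen. Members and lists were chosen with earlier results of these data known. The replicate numbers did not pair the samples. Alternatives were another pseudocount, no filter, median-of-ratios scaling, a replicate block, other sets of libraries and division of the 52 genes.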

Additional observations from a re-analysis of the deposited data

Results flagged for a closer look

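Each tested collagen had an interaction test in limma: the log2 change by TGF-beta1 with enzalutamide (ENZ+TGF over ENZ) minus that without it (TGF over DMSO). It was called for 27 of the 28 tested collagens, beside 63.7% of all tested genes. The 22 named collagens given here were listed because they were past the threshold, so their number is not a result. Col18a1, named above, was not called and is left out. Every value rests on the ENZ+TGF libraries, which were close to the ADT libraries. Among fibrillar collagens the difference was 2.55 for Col3a1, 1.81 for Col24a1, 0.78 for Col1a2, 0.77 for Col11a1 and 0.45 for Col1a1, and it was -1.36 for Col5a3, -1.16 for Col5a1 and -0.72 for Col5a2. Among basement membrane collagens it was -1.67 for Col4a2, -1.52 for Col4a1 and -1.09 for Col4a5. The type VI chains had differences of 1.46 (Col6a2), 1.32 (Col6a1) and 0.28 (Col6a3). Among short-chain collagens it was 1.61 for Col8a1 and -1.71 for Col10a1, which rests on 1 read in the ENZ+TGF libraries. For the anchoring fibril chain Col7a1 it was -1.18. The collagens bound to fibrils had differences of -2.66 (Col20a1), -1.55 (Col12a1), -0.92 (Col14a1) and -0.79 (Col16a1). The multiplexin Col15a1 had the most negative value, -3.54.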

How the results depend on the processing

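The count of collagens called stayed within 1.5 times its value in all 8 comparisons under every alternative that was run. Leaving out 1 library lowered the count with ENZ against DMSO, as it did the count over all genes in that comparison. Those fits leave a lone library in a group, so their counts are not given. A replicate block left the count at 25 with ENZ+TGF, 22 with TGF and 19 with ENZ against DMSO, beside 10962, 7864 and 3521 of 14828 genes tested. It changed no call of a named collagen. Deviations of same-numbered libraries correlated by -0.0277 to 0.0928 over 10 pairs of groups. Dividing the 52 DMSO genes by 0.3 changed no collagen call either.

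Median-of-ratios scaling turned the sign of 11 log2 changes. With TGF against DMSO these became 0.022 for Col18a1, 0.089 for Col1a2, 0.0745 for Col4a1 and 0.017 for Col4a2. With ENZ+TGF against DMSO they became 0.10 for Col16a1 and 0.014 for Col5a1, and in ADT against DMSO 0.16 for Col16a1 and 0.035 for Col5a1. For ENZ+TGF against TGF Col11a1 became 0.0297, and against ENZ Col16a1 became 0.023 and Col18a1 0.084. The cause was not tested. The same scaling, added after seeing the data for sums, gave summed collagen TPM of 12777 with ENZ, 17583 with ENZ+TGF and 18071 in ADT, against 14465 with DMSO.

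With 1 library left out, Col4a2 with ENZ ranged from -0.046 to 0.0023, Col11a1 for ENZ+TGF against TGF from -0.049 to 0.0076, Col16a1 in ADT from -0.057 to 0.041, and the Col18a1 difference in TGF effect from -0.048 to 0.099; the cause was not tested. Over all genes, ENZ+TGF against ADT gave 2 calls as reported, 6 with a pseudocount of 0.1, 14 without a filter, 5 with the Sox4 columns and 0 with a block. With 2 libraries a group, the lone library left in a group was assumed to vary like the other groups.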
